A study of Mus musculus with 4 samples.

Results

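Transforming growth factor beta (TGF-beta) ligands, their receptors, the proteins that hold the latent ligands in the matrix and the TGF-beta-induced matrix gene Tgfbi were followed in muscle that forms bone after injury. The set was 9 genes taken by symbol from the 32285 features of the count tables. They were the ligands Tgfb1, Tgfb2 and Tgfb3, the receptors Tgfbr1 and Tgfbr2, the latent binders Ltbp1, Ltbp2 and Ltbp3, and Tgfbi. Ltbp2 is grouped with the latent binders by name only, since it is not known to bind the latent ligand. Each symbol matched 1 feature, and all 9 had at least 50 unique molecular identifiers (UMIs, counted RNA molecules) over the sections, a minimum that 14716 genes reached.

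RNA was counted in place, by capture spots, in 4 frozen tibial muscle sections of Nse-Bmp4 mice (C57BL/6, 6 to 8 weeks old). These mice carry a murine Bmp4 transgene driven by the rat promoter of neuron-specific enolase and develop heterotopic ossification (HO), bone outside the skeleton, after muscle injury. The uninjured section is called day 0, and the others were taken 1, 3 or 7 days after injury (1, 3 and 7 dpi), which the methods describe as cardiotoxin injection. The question was how RNA in the injured muscle differed over the days in which cartilage forms. All 4 sections, the uninjured one included, carried the transgene, and no wild-type section was used here. The labels state that 3 tibial muscles were mixed for a group, and how these muscles map onto a section was not settled. With 1 section per time point there was no spread between animals to test against, so no p-value is given, and every interval below is at 95% and covers counting error only.

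TGF-beta ligands are made as precursors that stay in a latent complex with their own propeptide. Latent TGF-beta binding proteins (LTBPs) tie that complex to the extracellular matrix, from which integrins, proteases or thrombospondin can free the active ligand. The active ligand joins a type II receptor (Tgfbr2) to a type I receptor (Tgfbr1), which phosphorylates SMAD proteins. In muscle the pathway is known for its part in inflammation, fibrosis and the restraint of myoblast fusion, and in the skeleton for its part in chondrogenesis.

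The sections held from 2107 to 3032 spots and from 16777832 UMIs (1 dpi) to 56113066 UMIs (3 dpi), with a median of 6322 to 21029 UMIs per spot. The 15 adult myofibre markers were detected in every section and held 27.8% of all UMIs in the uninjured section, 15.05% at 1 dpi, 9.12% at 3 dpi and 16.3% at 7 dpi. Of 4078 spot barcodes, 3333 were found in more than 1 section, since the capture arrays use one fixed set of positions. A spot covers several cells, so fewer cells of a type and less RNA per cell cannot be told apart in any value below. Levels are UMIs per 1000000 UMIs of the section (CPM).

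RefSeq promoters (GRCm38.p6, the assembly of mm10) were matched for 8 of the 9 genes, with 10 start sites of 250 bases before and 50 after the start. Tgfb3 was not matched. The SMAD box CAGAC, searched on both strands, was present in 8 of the 10 windows and in 7 of the 8 genes, and in 49.6% of all 32851 promoter windows of that length. The SP1 motif GGGCGG was present in 4 of the 10 windows against 35.7% of all windows, the TATA box TATAAA in the Tgfb2 window only against 13.6%, and the AP-1 motif TGANTCA in the Ltbp3 window only against 7.81%. The bases before the start of Tgfb1, Ltbp2 and Tgfbi are printed because these 3 genes had the largest ratios of 3 dpi to uninjured muscle. Capitals mark each match to CAGAC or GGGCGG on either strand, and no match of one overlapped a match of the other.
Tgfb1 (chr7:25686752-25687001, plus strand): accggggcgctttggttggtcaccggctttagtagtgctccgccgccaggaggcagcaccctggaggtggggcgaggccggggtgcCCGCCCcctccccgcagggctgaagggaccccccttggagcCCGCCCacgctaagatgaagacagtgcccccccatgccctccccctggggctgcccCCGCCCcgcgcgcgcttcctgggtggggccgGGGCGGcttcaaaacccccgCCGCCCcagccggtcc
Ltbp2 (chr12:84876559-84876741, minus strand): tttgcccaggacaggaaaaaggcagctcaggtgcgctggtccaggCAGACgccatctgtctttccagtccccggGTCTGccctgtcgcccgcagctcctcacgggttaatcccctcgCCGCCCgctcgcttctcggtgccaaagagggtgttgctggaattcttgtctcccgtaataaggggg
Tgfbi (chr13:56609336-56609585, plus strand): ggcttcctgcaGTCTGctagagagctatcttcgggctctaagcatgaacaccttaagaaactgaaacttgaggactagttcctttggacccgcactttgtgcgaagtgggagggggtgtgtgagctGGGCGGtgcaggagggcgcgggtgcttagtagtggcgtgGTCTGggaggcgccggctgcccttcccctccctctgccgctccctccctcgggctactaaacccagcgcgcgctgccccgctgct
The Tgfb1 stretch held 5 matches to GGGCGG and none to CAGAC, while the Ltbp2 and Tgfbi stretches each held 2 matches to CAGAC and 1 to GGGCGG. For Ltbp2, 67 bases that lie inside the annotated gene were left out. A match is a description of the letters and not of a bound site.

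The members did not move as a block. Tgfb1, Tgfbr1, Ltbp2 and Tgfbi were highest at 3 dpi, while Tgfb3, Tgfbr2, Ltbp1 and Ltbp3 were highest at 7 dpi, and Tgfb2 was at the same level at 7 dpi as in uninjured muscle. Ltbp2 stood apart in size: it was all but absent from the uninjured section and had the largest ratio to uninjured muscle of the set on every injured day. At 1 dpi the ligands diverged, with Tgfb1 higher and both Tgfb2 and Tgfb3 lower than in uninjured muscle. Of 27 pairs of neighbouring time points in the order of each gene's level, 25 had a ratio whose counting interval did not include 1, and the exceptions were Tgfb2 (7 dpi and uninjured) and Tgfbr1 (1 dpi and uninjured).

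**Figure D1:**
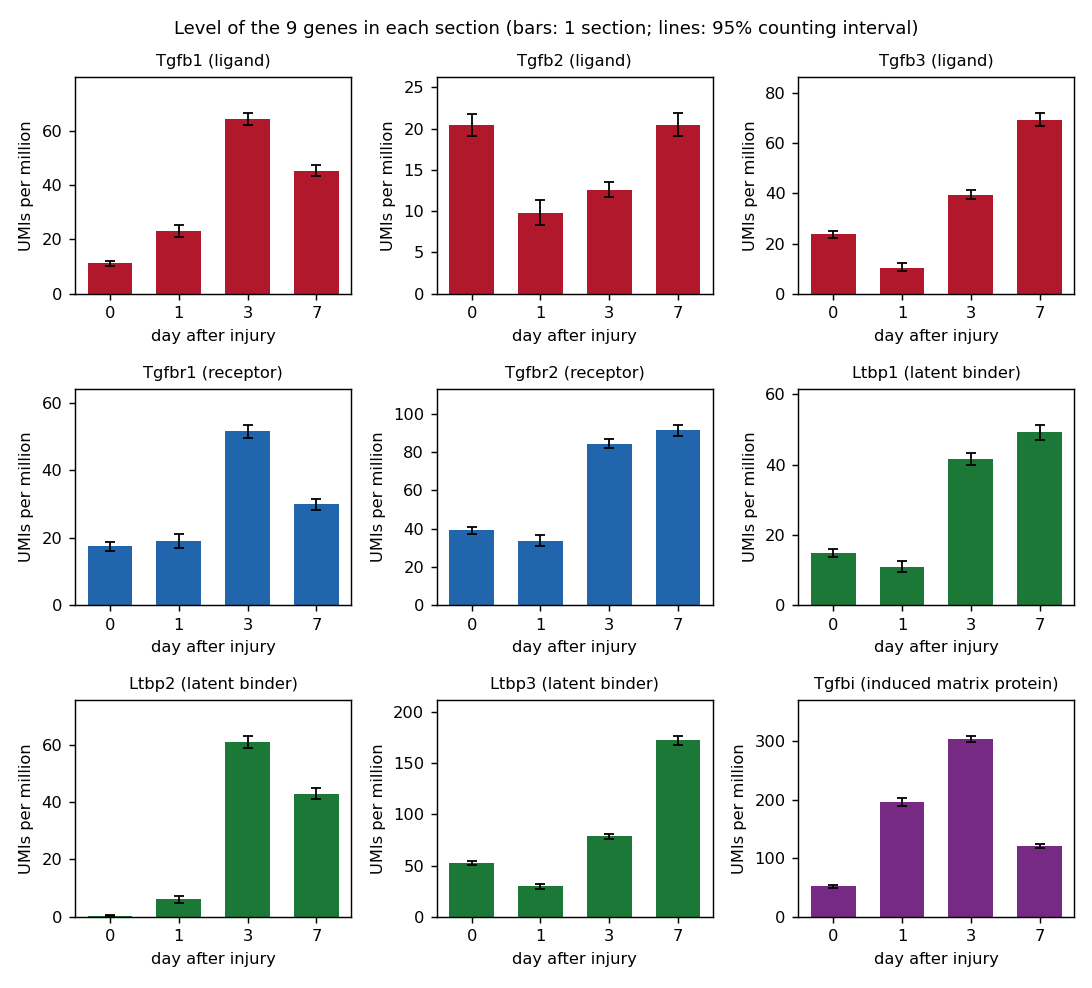
Level of each of the 9 genes (y axis, UMIs per 1000000 UMIs of the section, from 0) by day (x axis, 0 is uninjured), 1 bar per section, with lines for the 95% counting interval. Tgfb1, Tgfbr1, Ltbp2 and Tgfbi have their tallest bar at day 3, and Tgfb3, Tgfbr2, Ltbp1 and Ltbp3 at day 7.

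Tgfb1 (chr7:25687002-25705077) encodes the ligand made by many leukocytes and released by platelets. It had 11.1 CPM (489 UMIs) in the uninjured section, 22.9 CPM (385 UMIs) at 1 dpi, 64.3 CPM (3607 UMIs) at 3 dpi and 45.3 CPM (1894 UMIs) at 7 dpi. The uninjured section was lowest and the section at 3 dpi highest. Over uninjured muscle the level was 2.06-fold higher at 1 dpi (1.80 to 2.36), 5.77-fold at 3 dpi (5.25 to 6.35) and 4.06-fold at 7 dpi (3.68 to 4.50). With TMM factors the value at 1 dpi was under 2-fold, with a log2 ratio of 0.83. The level at 7 dpi was 1.42-fold below that at 3 dpi. Beside it, the summed level of 12 monocyte/macrophage markers was 440 CPM, 2051 CPM, 9907 CPM and 2275 CPM on days 0, 1, 3 and 7, with none of the markers at 0. Summed platelet markers (6 genes) were 48.3 CPM, 596 CPM, 484 CPM and 96.0 CPM on the same days, with Treml1 at 0 in uninjured muscle, Gp9 and Treml1 at 0 at 1 dpi and Gp9 at 0 at 7 dpi. Their part in the Tgfb1 level was not tested.

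Tgfb2 (chr1:186622787-186709697), a ligand with roles in heart and skeletal development, was the only member that was below or level with uninjured muscle on all injured days. It had 20.4 CPM (897 UMIs), 9.77 CPM (164 UMIs), 12.6 CPM (706 UMIs) and 20.5 CPM (856 UMIs) on days 0, 1, 3 and 7. The lowest section was that at 1 dpi, 2.09-fold below uninjured muscle, followed by that at 3 dpi, 1.63-fold below. At 7 dpi the ratio to uninjured muscle was 1.00 (0.910 to 1.10) on CPM, and with TMM factors its log2 value was -0.61, so its direction at 7 dpi depended on the scaling.

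Tgfb3 (chr12:86056743-86079041) encodes the ligand known for palate closure and for its use in chondrogenic culture. It had 23.7 CPM (1040 UMIs) in uninjured muscle, 10.4 CPM (175 UMIs) at 1 dpi, 39.5 CPM (2217 UMIs) at 3 dpi and 69.5 CPM (2906 UMIs) at 7 dpi. Against uninjured muscle it was 2.27-fold lower at 1 dpi, 1.67-fold higher at 3 dpi (1.55 to 1.80) and 2.93-fold higher at 7 dpi (2.73 to 3.15). With TMM factors the log2 ratio was 0.19 at 3 dpi and, under 2-fold, 0.94 at 7 dpi. From 1 to 3 dpi it was 3.79-fold higher (3.25 to 4.44). Its highest section was that at 7 dpi, while that of Tgfb1 was the one at 3 dpi.

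The UMIs of the 3 ligands together were 55.3 CPM (53.1 to 57.5) in uninjured muscle, 43.2 CPM (40.1 to 46.4) at 1 dpi, 116 CPM (114 to 119) at 3 dpi and 135 CPM (132 to 139) at 7 dpi. Tgfb1 held 20.2% of ligand UMIs in uninjured muscle (exact binomial interval 18.6% to 21.8%), 53.2% at 1 dpi, 55.2% at 3 dpi and 33.5% at 7 dpi. Tgfb2 held 37.0%, 22.7%, 10.8% and 15.1%, and Tgfb3 held 42.9%, 24.2%, 34.0% and 51.4%. These are shares of UMIs and not of molecules in the tissue, since capture near the RNA's end differs between genes, so only the movement of a share between days is read.

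**Figure D2:**
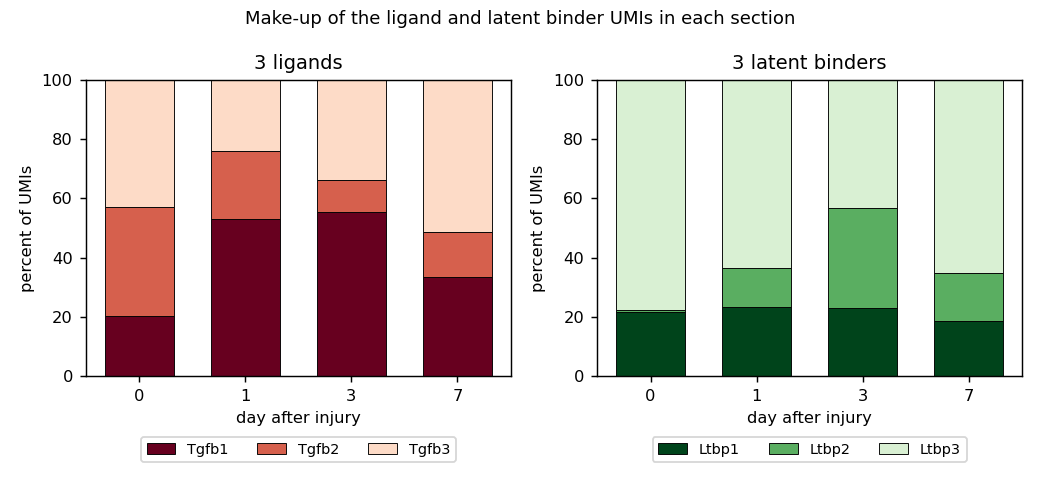
Percent of UMIs (y axis, 0 to 100) held by each of the 3 ligands (left) and each of the 3 latent binders (right) in the section of each day (x axis). The Tgfb1 share is 20.2% at day 0 and 55.2% at day 3, and the Ltbp2 share is 0.438% at day 0 and 33.6% at day 3.

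Both receptors were higher on CPM at 3 and 7 dpi than in uninjured muscle, and they peaked on different days. Tgfbr1 (chr4:47353222-47414926), the type I receptor kinase, had 17.4 CPM (765 UMIs), 19.0 CPM (319 UMIs), 51.6 CPM (2897 UMIs) and 29.9 CPM (1251 UMIs) on days 0, 1, 3 and 7. It was 2.96-fold higher at 3 dpi than in uninjured muscle (2.73 to 3.21) and 1.72-fold higher at 7 dpi (1.57 to 1.88). The log2 ratio at 7 dpi was 0.78 on CPM and only 0.17 with TMM factors. At 1 dpi the ratio was 1.09 (0.954 to 1.24), and its log2 value was 0.12 on CPM and -0.08 with TMM factors.

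Tgfbr2 (chr9:116087695-116175363), the type II receptor that binds the ligand first, had 39.2 CPM (1718 UMIs) in uninjured muscle, 33.7 CPM (565 UMIs) at 1 dpi, 84.3 CPM (4733 UMIs) at 3 dpi and 91.3 CPM (3820 UMIs) at 7 dpi. The later sections were 2.15-fold (2.04 to 2.28) and 2.33-fold (2.20 to 2.47) above uninjured muscle. Both values were under 2-fold with TMM factors, with log2 ratios of 0.56 and 0.62. From 3 to 7 dpi Tgfbr2 was 1.08-fold higher (1.04 to 1.13) while Tgfbr1 was 1.73-fold lower, so the share of Tgfbr1 in the UMIs of the pair was 38.0% at 3 dpi and 24.7% at 7 dpi.

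Among the latent binders, Ltbp1 and Ltbp3 hold latent TGF-beta in the matrix, whereas Ltbp2 is a fibrillin-like matrix protein that is not known to bind the latent ligand. Ltbp1 (chr17:75005480-75392512) had 14.7 CPM (647 UMIs), 10.9 CPM (183 UMIs), 41.6 CPM (2332 UMIs) and 49.2 CPM (2057 UMIs) on days 0, 1, 3 and 7. It was 1.35-fold lower at 1 dpi, 2.82-fold higher at 3 dpi (2.58 to 3.08) and 3.33-fold higher at 7 dpi (3.05 to 3.65) than in uninjured muscle. With TMM factors the value at 3 dpi was under 2-fold, with a log2 ratio of 0.95. The section at 1 dpi was lowest and that at 7 dpi highest.

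Ltbp2 (chr12:84783212-84876558) had 0.296 CPM in uninjured muscle, from 13 UMIs in 13 spots. It had 6.08 CPM (102 UMIs) at 1 dpi, 60.9 CPM (3416 UMIs) at 3 dpi and 42.9 CPM (1796 UMIs) at 7 dpi. The ratios to uninjured muscle were 20.5 (11.5 to 39.8), 205 (120 to 386) and 145 (84.5 to 273), and the low uninjured count set the width of these intervals. At 1 dpi the level was 10.0-fold below that at 3 dpi (8.22 to 12.3).

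Ltbp3 (chr19:5740900-5758536) had 52.7 CPM (2310 UMIs) in uninjured muscle, 29.7 CPM (498 UMIs) at 1 dpi, 78.5 CPM (4406 UMIs) at 3 dpi and 172 CPM (7205 UMIs) at 7 dpi. Against uninjured muscle it was 1.77-fold lower at 1 dpi, 1.49-fold higher at 3 dpi (1.42 to 1.57) and 3.27-fold higher at 7 dpi (3.12 to 3.43). Ltbp3 was the only member at least 2-fold higher at 7 than at 3 dpi, with a ratio of 2.19 (2.11 to 2.28). Of the UMIs of the 3 binders, Ltbp2 held 0.438% in uninjured muscle, 13.0% at 1 dpi, 33.6% at 3 dpi and 16.2% at 7 dpi, and Ltbp3 held 77.8%, 63.6%, 43.4% and 65.2%.

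Tgfbi (chr13:56609586-56639359), a secreted matrix protein named for its induction by TGF-beta, had 52.2 CPM (2288 UMIs) in uninjured muscle, 197 CPM (3299 UMIs) at 1 dpi, 304 CPM (17051 UMIs) at 3 dpi and 120 CPM (5040 UMIs) at 7 dpi. Over uninjured muscle it was 3.77-fold higher at 1 dpi (3.57 to 3.98), 5.83-fold at 3 dpi (5.58 to 6.09) and 2.31-fold at 7 dpi (2.20 to 2.43). With TMM factors the value at 7 dpi was under 2-fold, with a log2 ratio of 0.60. Tgfbi was also the only member at least 2-fold lower at 7 than at 3 dpi, by 2.52-fold. The order of its levels, with 1 dpi above 7 dpi, was shared by no other member.

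Counts past 2-fold were set against all 14716 genes. At 1 dpi 3 members (Tgfb1, Ltbp2 and Tgfbi) were at least 2-fold higher than in uninjured muscle, where 18.2% of all genes were, and 2 (Tgfb2 and Tgfb3) were at least 2-fold lower, where 11.2% were. At 3 dpi 6 members were higher (Tgfb1, Tgfbr1, Tgfbr2, Ltbp1, Ltbp2 and Tgfbi), against 31.8% of genes, and 0 were lower, against 7.37%. At 7 dpi 7 were higher (all but Tgfb2 and Tgfbr1), against 31.0%, and 0 were lower, against 1.49%. From 1 to 3 dpi 7 members were higher (all but Tgfb2 and Tgfbi), against 18.5%, and 0 lower, against 2.89%. From 3 to 7 dpi 1 was higher (Ltbp3), against 13.9%, and 1 lower (Tgfbi), against 10.4%. With 9 members, each gene moves such a count by 11.1% of the set, and the counts are a description.

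On the CPM scale the median log2 ratio of all genes to uninjured muscle was 0.17 at 1 dpi, 0.57 at 3 dpi and 0.65 at 7 dpi. Measured from that median gene, the log2 ratio at 3 dpi was 1.96 for Tgfb1, -1.27 for Tgfb2, 0.17 for Tgfb3, 1.00 for Tgfbr1, 0.54 for Tgfbr2, 0.93 for Ltbp1, 7.12 for Ltbp2, 0.01 for Ltbp3 and 1.98 for Tgfbi. On this footing Tgfb3 and Ltbp3 at 3 dpi were near the median gene, and Tgfb2 was below it. At 7 dpi the same measure was 1.38 for Tgfb1, -0.64 for Tgfb2, 0.91 for Tgfb3, 0.13 for Tgfbr1, 0.58 for Tgfbr2, 1.09 for Ltbp1, 6.53 for Ltbp2, 1.06 for Ltbp3 and 0.56 for Tgfbi. With TMM factors, 2 members were at least 2-fold higher and 3 lower at 1 dpi, with 14.2% of all genes higher and 14.8% lower. At 3 dpi 4 were higher and 1 (Tgfb2) lower, with 18.9% and 15.4% of genes, and at 7 dpi 4 were higher and 0 lower, with 14.1% and 5.50%. From 1 to 3 dpi 6 were higher and 0 lower, with 11.2% and 5.42%.

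**Figure D3:**
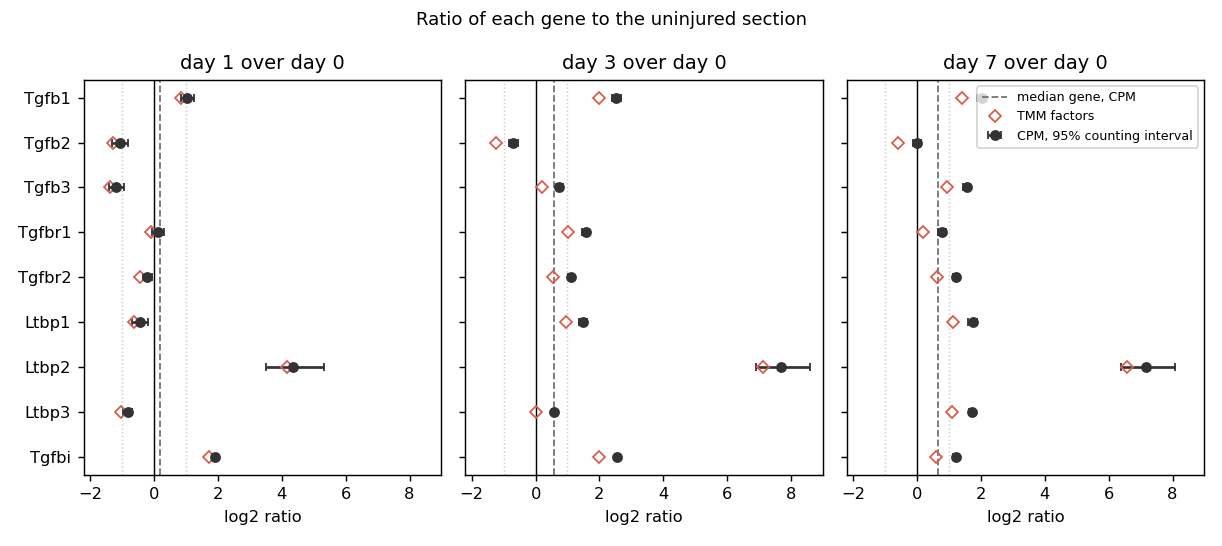
Log2 ratio of each gene (rows) to the uninjured section at days 1, 3 and 7 (panels), on CPM with its 95% counting interval (filled) and with TMM factors (open), beside the median of all genes on CPM (dashed line) and lines at a 2-fold change (dotted). Ltbp2 lies at 4.36, 7.68 and 7.18, and Tgfb2 lies below the median gene on each day.

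How widely each RNA was found was described by the percent of spots in which it was counted. Each spot was thinned to 2000 UMIs so that sections of different depth could be set side by side, which left out 513 spots at 1 dpi and from 9 to 84 spots in the other sections. Most spots of region 4 of 1 dpi, described below, fell under that depth, and that region had the highest Tgfbi of its section. Tgfbi was found in 9.44% of thinned spots in uninjured muscle, 29.4% at 1 dpi, 35.4% at 3 dpi and 18.01% at 7 dpi (50.6%, 56.1%, 81.2% and 55.9% without thinning). Ltbp2 was found in 0.0694% of thinned uninjured spots, 1.29% at 1 dpi, 8.38% at 3 dpi and 6.19% at 7 dpi (0.617%, 3.22%, 39.1% and 26.98% without thinning). A single spot held at most 1 UMI of Ltbp2 in uninjured muscle and at most 31 at 3 dpi. Ltbp3 was found in 9.77%, 5.78%, 13.7% and 25.3% of thinned spots on days 0, 1, 3 and 7. Tgfb1 was found in 2.20%, 4.89%, 10.1% and 6.97%. RNA can spread between spots on the array, and no spot outside the tissue was used here to measure that.

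Pairs of members were counted in the same thinned spot and set against the product of their separate shares. Each interval is that of the joint share with the product held fixed, so it leaves out the counting error of the separate shares. Tgfb1 and Tgfbi were found together in 2.25% of spots at 1 dpi, 1.56 times the product (1.15 to 2.05), in 4.90% at 3 dpi, 1.37 times (1.16 to 1.60), and in 1.76% at 7 dpi, 1.40 times (1.05 to 1.84). Ltbp2 and Tgfbi were together in 4.50% at 3 dpi, 1.52 times the product (1.28 to 1.79), and in 1.99% at 7 dpi, 1.78 times (1.37 to 2.31). Tgfb3 and Ltbp2 were together in 0.834% at 3 dpi, 1.61 times (1.03 to 2.35), and in 1.38% at 7 dpi, 2.14 times (1.55 to 2.92). The receptors Tgfbr1 and Tgfbr2 were not found together beyond the product at this depth, with ratios of 1.08 (0.770 to 1.45) at 3 dpi and 0.975 (0.630 to 1.49) at 7 dpi. A ratio could be given for 5 of the 10 pairs in uninjured muscle, 6 at 1 dpi and all 10 at 3 and 7 dpi, and 0, 1, 3 and 5 of these had an interval above 1, so the counts are not compared between days. At full depth 8, 5, 10 and 10 pairs did, Tgfbr1 with Tgfbr2 among them at days 0, 3 and 7, so these counts follow depth and are read within a depth only.

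Spots of a section were ranked by the share of their UMIs from a marker list, and the level of each member in the richest 25% was divided by that in the poorest 25%. For the monocyte/macrophage list at 3 dpi, Ltbp2 was 116 CPM in the richest spots and 9.19 CPM in the poorest, a ratio of 12.6 (10.2 to 15.8). Tgfbi was 540 CPM and 75.0 CPM, a ratio of 7.20 (6.68 to 7.78). Tgfb1 was 110 CPM and 20.8 CPM, a ratio of 5.29 (4.57 to 6.15). At the other end Ltbp3 was nearly level, with a ratio of 1.10 (1.00 to 1.21), and Tgfb2 was lower in the macrophage-rich spots, at 10.5 CPM against 16.2 CPM, a ratio of 0.650 (0.525 to 0.807). The list held 1.89% of UMIs in the richest and 0.187% in the poorest of these spots, and their median depths were 24639 and 11184 UMIs.

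Tgfb2 stood apart in the myofibre ranking as well. At 3 dpi the spots richest in adult myofibre RNA had 8 members lower than the poorest spots, with ratios from 0.0960 for Ltbp2 to 0.766 for Ltbp3. Tgfb2 was instead 1.44-fold higher (1.15 to 1.80), at 16.3 CPM against 11.3 CPM. In uninjured muscle the same ratio was 1.02 for Tgfb2 (0.840 to 1.23) and 0.952 for Tgfbr1 (0.774 to 1.17), while Tgfb1, Tgfb3, Tgfbr2, Ltbp1, Ltbp3 and Tgfbi were lower in the myofibre-rich spots, with ratios from 0.437 to 0.721. At 7 dpi all 9 members were lower there, from 0.0927 for Ltbp2 to 0.650 for Tgfbr1. Without mitochondrial, haemoglobin and myofibre genes in the total, the Tgfb2 ratio at 3 dpi was 2.19, that of Ltbp3 was 1.16 (1.05 to 1.29), and that of Tgfbr1 at 7 dpi was 0.929 (0.789 to 1.09). With that total the Ltbp3 ratio in the macrophage ranking at 3 dpi was 0.734 (0.668 to 0.808), so its direction there depended on the total.

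At 7 dpi, in the spots richest in the chondrogenic list, Ltbp2 was 105 CPM against 10.7 CPM in the poorest, a ratio of 9.82 (8.13 to 12.0). Tgfbi was 4.34-fold higher (3.97 to 4.75), Tgfb3 3.12-fold (2.80 to 3.48), Ltbp3 2.72-fold (2.54 to 2.91) and Tgfb2 2.14-fold (1.77 to 2.60). Tgfbr1 had a ratio of 1.09 (0.932 to 1.27), and 0.842 with the total without those genes. The 11 chondrogenic genes were all detected at 7 dpi, where they summed to 2208 CPM against 8.34 CPM in uninjured muscle. At 3 dpi they summed to only 54.7 CPM, with Cnmd and Snorc at 0. In the richest spots of that section Ltbp2 was 2.25-fold higher (2.02 to 2.51) and Tgfb2 was level (1.07, 0.850 to 1.36). The list was too sparse to rank spots in uninjured muscle and at 1 dpi.

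For the fibroblast and MSC list, Tgfbi was 4.42-fold higher in the richest spots of uninjured muscle and 3.62-fold at 7 dpi, where 8 members were higher and Tgfbr1 was lower (0.795, 0.668 to 0.944). For the tendon list the ratios lay between 0.928 and 1.59 in uninjured muscle. At 1 dpi Tgfbr1 (0.633) and Tgfbi (0.721) were lower in the spots richest in tendon markers and Ltbp2 (3.92) higher. With spots of at least 1000 UMIs ranked instead, the highest ratio of any member was 1.81. Tgfb1 and Tgfbi were then lower, and the Tgfbr1 interval included 1. At 3 dpi Tgfb1, Tgfbr1 and Tgfbi were lower and 4 members higher, and at 7 dpi all 9 were above 1, from 1.45 for Tgfbr1 to 11.2 for Ltbp2. For the endothelial list ratios never reached 2, with a highest value of 1.96 for Tgfb1 in uninjured muscle. The lists share spots, since cells of several types lie in one spot, and which cells held a member's RNA was not tested.

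**Figure D4:**
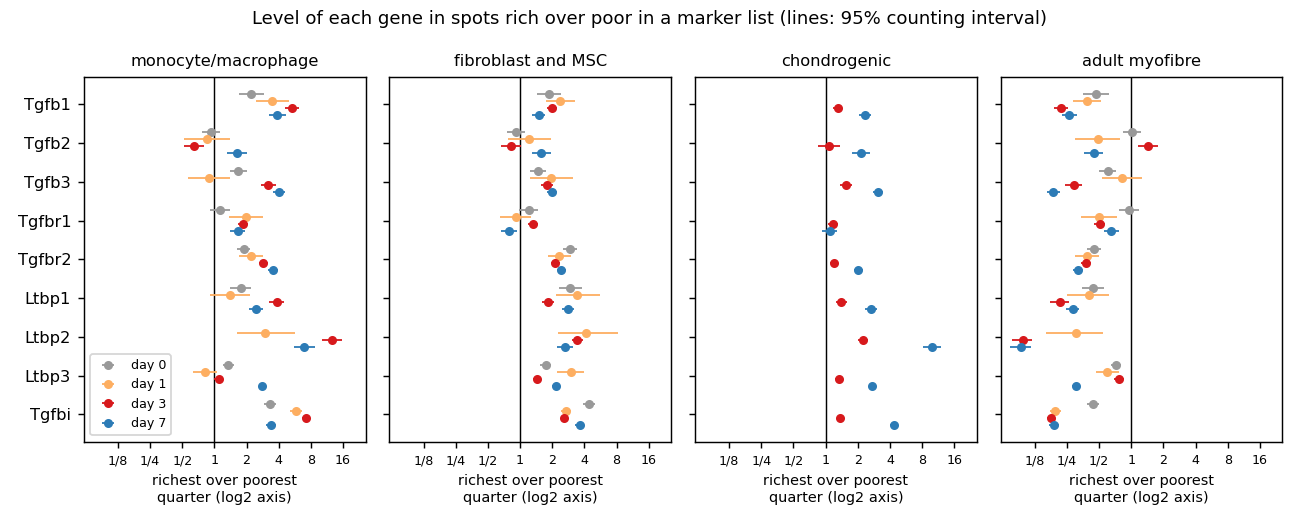
Ratio of each gene's level in the richest 25% of spots to that in the poorest 25% (x axis, log2-spaced), for 4 marker lists (panels), by day (colours), with 95% counting intervals; Ltbp2 at day 0 is left out for its 13 UMIs. For the adult myofibre list at day 3 Tgfb2 is the only gene to the right of 1.

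Regions were clusters of spots within a section, made without the members, the listed genes, and mitochondrial and haemoglobin genes. They are called by number and leading genes. In uninjured muscle, region 4 (369 spots, led by Retnla, Eln and Vwf) had the highest Tgfbi, at 108 CPM against 22.6 CPM in region 1 (638 spots, led by Actc1, Mical2 and Tceal7). It also had the highest Ltbp1 (23.4 CPM). Tgfbr2 (60.9 CPM) and Tgfb3 (34.5 CPM) were highest there too, with intervals that overlapped those of region 6 (70 spots). Tgfb2 varied little, from 17.6 CPM to 22.4 CPM over the 6 regions.

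At 1 dpi Tgfbi was 700 CPM in region 4 (344 spots, led by Lars2 and Gm42418) and 524 CPM in region 3 (486 spots, led by Slfn4, Spp1 and Clec10a). Region 4 was shallow, with a median of 869.5 UMIs per spot, and 3 UMIs of Tgfb3 were counted in all of it. Tgfbr1 (31.1 CPM) and Tgfbr2 (64.5 CPM) were highest in region 3, with intervals that overlapped those of the next region. Region 7, with 60 spots led by Actg2, P2rx1 and Cytl1, had the highest Tgfb3 (45.3 CPM from 15 UMIs) and Ltbp1 (36.2 CPM from 12 UMIs), against 10.4 CPM and 10.9 CPM in the section as a whole. The Ltbp1 interval overlapped that of region 3.

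At 3 dpi region 2 (773 spots, led by Spp1, Sfrp2 and Adam8) had the highest level of 6 members. Ltbp2 was 118 CPM there, 3.86-fold the rest of the section (3.59 to 4.15). Tgfbi was 538 CPM, 3.01-fold (2.92 to 3.11). Tgfb1 was 110 CPM, 2.73-fold (2.56 to 2.92). Monocyte/macrophage markers held 1.83% of the UMIs of that region, and adult myofibre markers 1.87%. Ltbp3 was instead highest in region 6 (88 spots, led by Wfdc21, Cfd and Hp, with adipocyte markers at 1.23% of UMIs), at 230 CPM. Region 6 also had the highest shares of that section for the fibroblast and MSC (0.665%), tendon (0.312%) and chondrogenic (0.0698%) lists. Tgfbr2 was 133 CPM in region 6 (109 to 160) and 120 CPM in region 2 (115 to 124), within counting error of each other. Tgfb2 was 15.3 CPM in region 1, led by Fbxl22 and Mmp3, and 13.3 CPM in the next region, with intervals that overlapped.

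At 7 dpi region 5 (277 spots, led by the cartilage genes Col10a1, Col9a1 and Col9a3) had the highest level of 7 members. Ltbp2 was 184 CPM there and at most 41.8 CPM in any other region, and it was 6.60-fold the rest of the section (6.00 to 7.26). Tgfbi was 422 CPM (4.80-fold), Tgfb3 217 CPM (4.05-fold), Ltbp1 129 CPM (3.18-fold) and Ltbp3 396 CPM (2.67-fold). Tgfb2, level with uninjured muscle over the whole section, was 49.1 CPM in this region, 2.82-fold the rest (2.40 to 3.31). Tgfbr1 was 29.1 CPM there and 29.9 CPM in the section, and was highest in region 3 (45.8 CPM), which was led by the developmental myosins Myh8 and Myh3. Tgfbr2 was highest in region 7 (152 CPM), led by Wfdc21, Nnat and Cyp2e1, with 143 CPM in region 5 and intervals that overlapped, as did those of Ltbp1 in regions 5 and 7. Region 1 (1011 spots, led by mt-Atp8 and Ckmt2) had the lowest level of all 9.

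**Figure D5:**
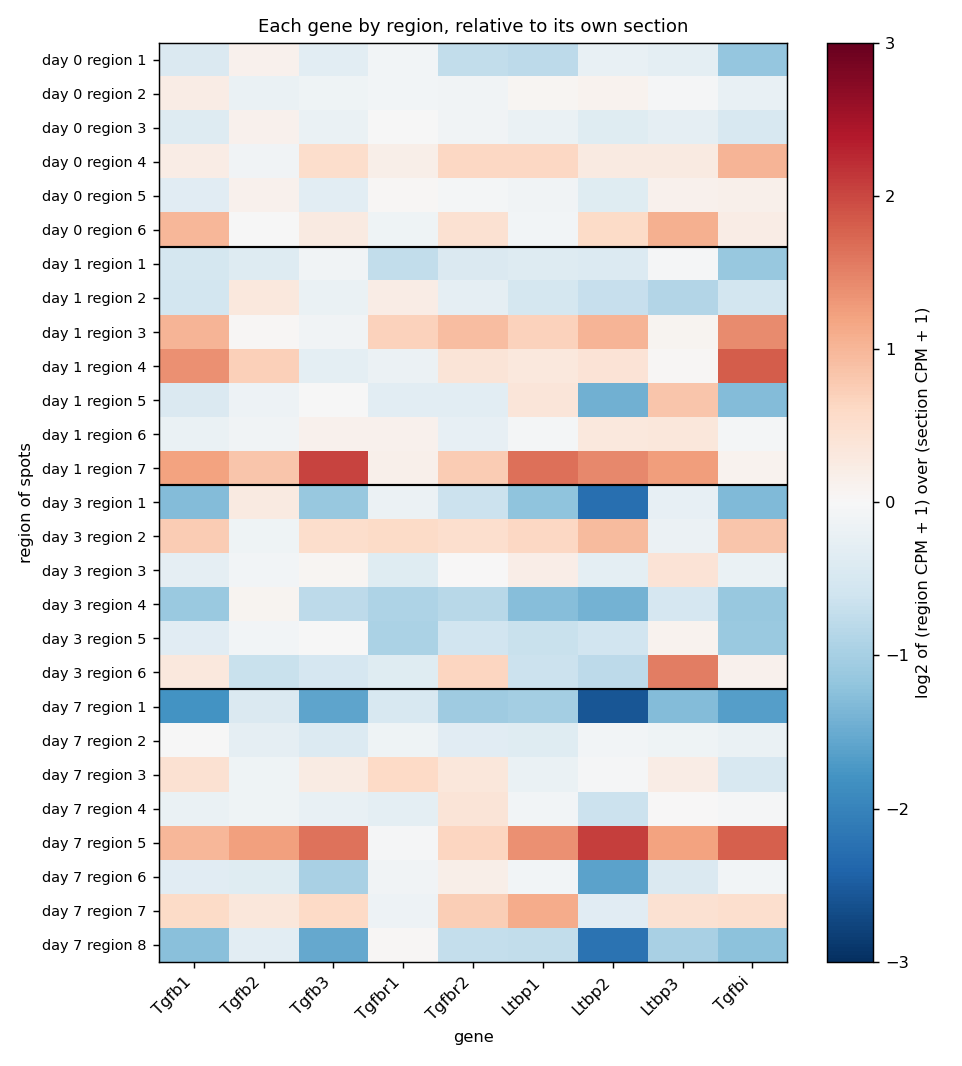
Level of each gene (columns) in each of the 27 regions of at least 20 spots (rows, grouped by day), as the log2 ratio of the region's CPM to its section's CPM, each plus 1; red is above the section and blue below. Region 5 of day 7 is red for every gene but Tgfbr1, and region 1 of day 7 is blue for all 9.

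Over the 27 regions, log2 levels of the members were compared with those of 11274 genes. The points share 4 libraries and the spots' depth, so Pearson's r is a description. The genes closest to Tgfb1 were Hexa (r = 0.972), Plxnb2 (0.971), Ftl1-ps1 (0.963), Pla2g15 (0.961) and Tcirg1 (0.959). Those closest to Tgfb3 were Tmem119 (0.957), Olfml2b (0.953), C1qtnf6 (0.9502), Clec11a (0.947) and Bmp1 (0.946). Bmp1, a protease that cuts procollagens and LTBPs, was also among those closest to Ltbp3 (0.933), after Igfbp4 (0.952), Gas6 (0.942) and Rcn3 (0.939), and before Mmp23 (0.932).

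Ltbp2 was closest to Tnc (0.940), which encodes the matrix protein tenascin C, and then to Galk1 (0.935), Pafah1b3 (0.934), Snai1 (0.934) and Pld3 (0.925). Ltbp1 was closest to Rcn1 (0.933), Fut11 (0.932), Nsg1 (0.931), Csrp2 (0.929) and Wls (0.928). Tgfbr2 was closest to Lima1 (0.948), Timp2 (0.947), Man2b2 (0.946), Nucb1 (0.943) and Cmtm3 (0.941), and Tgfbi to Msn (0.942), Gcnt1 (0.941), B4galt6 (0.940), Clta (0.938) and H3f3b (0.936). The highest values were lower for Tgfb2, with Prrg1 (0.867), Smco4 (0.861), Ypel2 (0.844), Mecom (0.835) and Adgrl1 (0.833), and for Tgfbr1, with Wdfy3 (0.829), Hdac6 (0.824), Mid1 (0.823), B4galt5 (0.822) and Skil (0.818). Between members, r was highest for Tgfb1 with Ltbp2 (0.905) and for Ltbp1 with Tgfbr2 (0.903), and lowest for Tgfb2 with Tgfbi (-0.18).

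The rest of the pathway was described by 55 genes in 5 role groups, all 55 above the minimum of 50 UMIs. At 1 dpi 10 were at least 2-fold higher than in uninjured muscle and 15 lower, with a median log2 ratio of -0.13. At 3 dpi 25 were higher and 1 (Ltbp4) lower, with a median of 0.67, and at 7 dpi 36 were higher and 0 lower, with a median of 1.30. The median of all genes on those days was 0.17, 0.57 and 0.65. Of all genes, 18.2%, 31.8% and 31.0% were at least 2-fold higher on those days, and 11.2%, 7.37% and 1.49% lower. The counts by role group below are to be read beside these shares.

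Of 18 genes for ligand activation and storage, 3, 7 and 13 were at least 2-fold higher than in uninjured muscle at 1, 3 and 7 dpi, and 5, 1 and 0 lower. Thbs1, whose thrombospondin frees latent TGF-beta, was 9.94 CPM in uninjured muscle, 42.0 CPM at 1 dpi, 216 CPM at 3 dpi and 94.3 CPM at 7 dpi. Nrros, which holds latent Tgfb1 protein on myeloid cells, was 7.13 CPM, 48.5 CPM, 75.6 CPM and 26.99 CPM on the same days. Bmp1 was 53.6 CPM in uninjured muscle and 242 CPM at 7 dpi, a ratio of 4.50. Thbs1 and Nrros were highest at 3 dpi, as was Tgfb1, and Bmp1 was highest at 7 dpi, as was Tgfb3.

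Of the 4 co-receptors and other type I receptors, 0 passed 2-fold in either direction at 1 and 3 dpi, and 2 were higher at 7 dpi. Those were Bambi, a decoy receptor without a kinase, at 4.22 CPM in uninjured muscle and 17.8 CPM at 7 dpi, and Tgfbr3, the co-receptor betaglycan, at 25.1 CPM and 53.0 CPM. The endothelial receptor Acvrl1 was 26.6 CPM, 19.5 CPM and 32.1 CPM on days 0, 1 and 3, and the endothelial co-receptor Eng was 64.4 CPM, 54.7 CPM and 72.1 CPM.

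Of 12 signal transducers and their regulators, 1, 5 and 5 were higher at 1, 3 and 7 dpi, and 1, 0 and 0 lower. The gene lower at 1 dpi was Smad3, which carries the signal to the nucleus, at 46.0 CPM in uninjured muscle and 13.9 CPM at 1 dpi. At 3 and 7 dpi Smad3 was 54.0 CPM and 32.8 CPM. Tgif1, a repressor of SMAD targets, was 3.51 CPM, 23.5 CPM, 37.8 CPM and 14.6 CPM on days 0, 1, 3 and 7. Skil, another SMAD repressor, was 10.7 CPM in uninjured muscle, 38.6 CPM at 3 dpi and 29.1 CPM at 7 dpi.

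Of 15 known target genes, 5 were higher and 7 lower at 1 dpi, 8 higher and 0 lower at 3 dpi, and 11 higher and 0 lower at 7 dpi. The protease inhibitor Timp1 was 5.04 CPM in uninjured muscle, 140 CPM at 1 dpi, 318 CPM at 3 dpi and 94.2 CPM at 7 dpi. Cthrc1, a secreted protein of matrix-forming cells, was 1.55 CPM in uninjured muscle, 103 CPM at 3 dpi and 276 CPM at 7 dpi, the largest ratio of the list at 178.

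Of 6 extracellular proteins that bind TGF-beta, 1 was higher and 2 lower at 1 dpi, and 5 were higher at both 3 and 7 dpi. The proteoglycan Fmod was 16.1 CPM, 87.2 CPM, 101 CPM and 326 CPM on days 0, 1, 3 and 7. Its relative Aspn was 43.9 CPM in uninjured muscle, 8.94 CPM at 1 dpi, 132 CPM at 3 dpi and 338 CPM at 7 dpi. Bgn was 164 CPM in uninjured muscle and 1312 CPM at 7 dpi, and Emilin1, which limits processing of the ligand precursor, was 18.7 CPM in uninjured muscle and 92.8 CPM at 3 dpi. The list was written with earlier results of these data known, and its counts are no independent evidence of a direction.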

How the data were processed

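For each gene and capture spot the authors deposited a UMI count, not normalized. Per the file headers these came from Space Ranger 1.2.0, and other versions are named in the labels and methods. The genome build was mm10 per the labels. The tables held spots over tissue, and all were used. The 9 members and every list were chosen with earlier results of these data known.

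Counts were summed per section and scaled to CPM, with exact Poisson intervals at 95%. Ratios used the exact conditional binomial interval, and a gene under 3 UMIs was entered at 3. No p-value was computed, and intervals cover counting error only. Called means at least 2-fold. Spots were thinned to 2000 UMIs in 20 draws with seed 1. The rankings used the monocyte/macrophage, fibroblast and MSC (mesenchymal stromal cell), tendon, chondrogenic, endothelial and adult myofibre lists in spots of at least 2000 UMIs. Ties between spots were broken at random. The chondrogenic ranking was skipped in uninjured muscle and at 1 dpi, where 87.9% and 82.3% of these spots held no UMI of the list. Scx and Fmod were on both the tendon and the pathway lists. Regions were Leiden clusters of 2000 variable genes, 30 components, 15 neighbours and a resolution of 0.5. A spot holds several cells, so no doublet caller or deconvolution was run. Spot positions and images were not used here.

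All members were named. Of each pathway role group the 2 genes with the largest absolute log2 ratio on each injured day were named, among those with at least 10 CPM in either section. One gene that this rule names is not reported here. For each member the 5 genes with the highest Pearson r of log2(CPM + 1) over regions of at least 20 spots were named, among genes with at least 500 UMIs. Ltbp4 and the genes that lead regions were named outside that rule, after their values were seen.

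Other settings were size factors of DESeq2, TMM factors of edgeR, a reduced total (no genes of mitochondria, haemoglobin or adult myofibres), spots of at least 1000 UMIs, no gene filter, a fold of 1.5, thinning to 1000 or 4000 UMIs or none, a resolution of 1 and sections merged before clustering. The planned description of protein sequences was not run. Calculations were tested on simulated data. Scaling factors came from DESeq2 1.42.0 and edgeR 4.0.16 under R 4.3.3. Clustering used leidenalg 0.10.2 through Scanpy 1.11.5 with scikit-learn 1.9.0. Sums and intervals used SciPy 1.17.1, pandas 2.3.3 and NumPy 2.4.6 under Python 3.11.15, and plots used matplotlib 3.10.9.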

Additional observations from a re-analysis of the deposited data

How the results depend on the processing

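No paired analysis was possible because each time point had 1 section and no test was run. Of 45 member ratios, 43 kept their sign with TMM factors, with DESeq2 size factors and with the reduced total (no genes of mitochondria, haemoglobin or myofibres), and 45 with spots of at least 1000 UMIs. The others were Tgfb2 at 7 dpi and Tgfbr1 at 1 dpi, both against uninjured muscle. Of 27 ratios past 2-fold, 20 stayed past it with TMM or size factors and 23 with that total. The TMM scale lies 0.21, 0.55 and 0.61 (log2) below CPM at 1, 3 and 7 dpi against uninjured muscle for every gene alike, so the order of the members is the same.

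Members at least 2-fold lower at 3 dpi than in uninjured muscle numbered 1 with TMM factors, with size factors, with that total and at a fold of 1.5. Members higher at 7 dpi numbered 4 with TMM and with size factors. At a fold of 1.5, 3 were higher and 2 lower from 3 to 7 dpi. Pathway genes lower at 3 dpi than in uninjured muscle numbered 5 with TMM and size factors and 4 with that total, those higher at 7 dpi 23 with both factors, those lower at 7 dpi 1 with both, and those lower from 1 to 3 dpi 2 with both. The pathway median (log2) with TMM factors, size factors and that total was -0.33, -0.32 and -0.32 at 1 dpi, 0.12, 0.11 and 0.23 at 3 dpi, and 0.69, 0.66 and 1.00 at 7 dpi, and from 1 to 3 dpi it was 0.77, 0.75 and 0.87. From 3 to 7 dpi it was 0.61 with that total. The spot filter moved no count or median of members or pathway genes. Removing the gene filter could move none, since every member and pathway gene passed it. Of 198 ranking ratios, 2 left their counting interval with spots of at least 1000 UMIs and 80 with the reduced total.

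Merging the sections before clustering left 2, 3, 3 and 5 regions of at least 20 spots on days 0, 1, 3 and 7. Clustering each section apart gave 6, 7, 6 and 8. With the sections merged, the highest region of Tgfb2 in uninjured muscle and at 1 dpi was below the rest of its section, as was that of Ltbp1 in uninjured muscle. Of 36 region ratios, 27 left their counting interval. At a resolution of 1, 13 of 36 did, and 16 of 36 did with the reduced total. Shares of spots follow the thinning depth by construction. Day 1 was the shallowest section, and Tgfb2, Tgfb3, Ltbp1 and Ltbp2 had fewer than 200 UMIs each there.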
